A study of Mus musculus with 10 samples.

Results

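miR-183, miR-96 and miR-182 form a cluster of 3 miRNA hairpins on mouse chromosome 6 that are transcribed together, and each hairpin gives a 5p and a 3p mature arm. The 6 mature arms (mmu-miR-183-5p, mmu-miR-183-3p, mmu-miR-96-5p, mmu-miR-96-3p, mmu-miR-182-5p and mmu-miR-182-3p) were taken by name from a table of 1907 mature miRNA entries, of which 1262 had at least 1 count and 481 passed the filter on low counts, the 6 members among them. Small RNA was sequenced in 10 libraries of mouse E14 embryonic stem cells, a blastocyst-derived line of 129/Ola background kept on gelatine with LIF (100 U/mL) and 15% serum. The 5 groups held 2 libraries each. Dgcr8_KO cells lacked Dgcr8, the RNA-binding subunit of the Microprocessor, and Drosha_KO cells lacked Drosha, its nuclease. Dicer_KO cells lacked Dicer, which cuts hairpins into duplexes, and Ago12_KO cells were a double knockout of the Argonaute genes Ago1 and Ago2, whose proteins hold the mature strand. WT cells were unmodified E14, with P25 and P33 in the labels of the 2 libraries. The 2 Dicer_KO libraries carry different codes, and the labels do not say what these stand for. The sample codes also differ in form between groups, so a batch that follows the groups cannot be told apart from genotype. How the knockout lines were made is not given here, and the small RNA counts used here hold no mRNA of the deleted genes. No label says that replicates were separate cultures: the p-values then reflect only the variation among these libraries, which may be technical.

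Canonical miRNAs are cut out of a primary transcript by Drosha with Dgcr8, then freed from the hairpin by Dicer, and usually a single strand of the duplex is kept in an Argonaute protein. The cluster is best known from sensory organs: it is abundant in the retina and in the hair cells of the inner ear, and changes in the seed of miR-96 cause hearing loss in mice and in people. The seed, bases 2 to 8 of the mature strand, is the part that pairs with target mRNAs.

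The hairpins lie on the minus strand of GRCm38, in the order of transcription miR-183, miR-96 and miR-182, and none of them overlaps another gene in GENCODE M21. The miR-183 hairpin is at chr6:30169668-30169737, the miR-96 hairpin 116 bases downstream at chr6:30169446-30169551, and the miR-182 hairpin a further 3453 bases downstream at chr6:30165918-30165992. The nearest annotated genes are the lincRNA Rncr4, 3155 bases from the miR-183 end, and the protein-coding gene Nrf1, 12459 bases from the miR-182 end, both on the plus strand. The RefSeq hairpins (GRCm38.p6) are shown because the results turn on how the arms of the same hairpin and the hairpins of the same transcript differ; capitals mark the 5p arm and then the 3p arm.
miR-183: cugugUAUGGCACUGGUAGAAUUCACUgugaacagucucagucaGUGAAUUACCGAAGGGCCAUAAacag
miR-96: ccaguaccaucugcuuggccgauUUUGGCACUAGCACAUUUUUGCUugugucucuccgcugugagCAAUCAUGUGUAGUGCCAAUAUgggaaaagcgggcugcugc
miR-182: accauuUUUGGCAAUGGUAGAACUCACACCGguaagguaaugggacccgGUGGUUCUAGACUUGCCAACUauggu

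**Figure D1:**
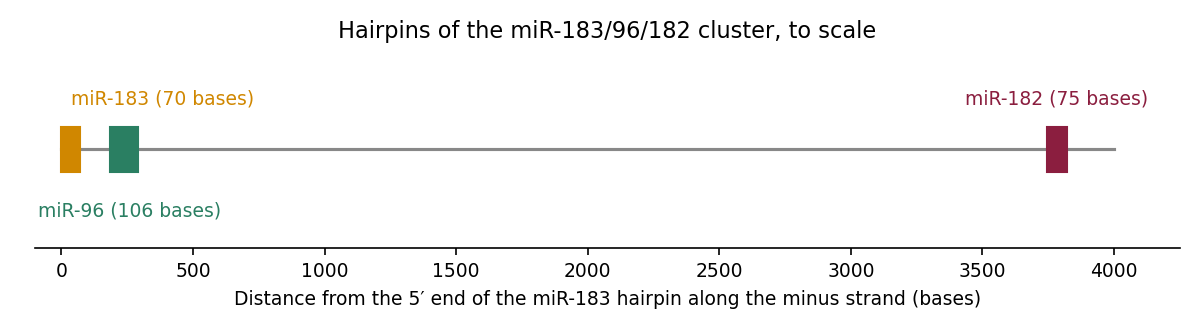
The 3 hairpins of the cluster are drawn to scale as boxes along the minus strand, with the distance in bases from the 5′ end of the miR-183 hairpin on the horizontal axis. The miR-183 and miR-96 hairpins sit 116 bases apart, and miR-182 lies 3453 bases further along.

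The mature 5p arms carry related seeds, shown in capitals.
miR-183-5p: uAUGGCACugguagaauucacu
miR-96-5p: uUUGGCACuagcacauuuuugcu
miR-182-5p: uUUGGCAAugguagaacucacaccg
With positions counted from 1 at the 5′ end, miR-183-5p and miR-96-5p differ within the seed by A2U, miR-96-5p and miR-182-5p by C8A, and miR-183-5p and miR-182-5p by both A2U and C8A. Over their whole length miR-183-5p and miR-182-5p are the closest pair, identical at 18 of 22 bases and otherwise different at U17C and U22A. The 3p arms do not share a seed with each other.
miR-183-3p: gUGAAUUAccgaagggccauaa
miR-96-3p: cAAUCAUGuguagugccaauau
miR-182-3p: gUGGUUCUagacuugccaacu
Among the 1623 entries with a RefSeq mature sequence, no other entry had the seed of miR-183-5p, miR-96-5p, miR-182-5p, miR-183-3p or miR-182-3p. The seed of miR-96-3p was shared by miR-3475-5p, which had no count in any library.

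Library totals ran between 37476 and 45222 counts in Drosha_KO and Dicer_KO and between 229407 and 408654 in Dgcr8_KO and Ago12_KO, against 2357868 and 1943868 counts in the WT libraries. A single count was therefore worth 22.1 to 26.7 CPM (counts per 1000000 of the library) in Drosha_KO and Dicer_KO but 0.424 to 0.514 CPM in WT. Values with counts left unscaled, given below, largely restate these depths and are not a test of a member's direction. All levels below are shares of the counted miRNA reads, so less of a miRNA per cell and a change in the rest of the library cannot be told apart. A list of 8 entries such as miR-3963 and miR-6240, here called fragment-like, took 57.2% and 62.1% of the Dicer_KO counts. It took 5.41% to 9.53% in Dgcr8_KO and Drosha_KO, 2.17% and 2.43% in Ago12_KO and 0.361% and 0.583% in WT. The list was chosen with earlier results of these data known. For the cluster members, calls that were lost or gained without these entries in the totals, and the called values of Dicer_KO, are given both ways. The embryonic stem cell markers, 8 entries of the miR-290 to miR-295 and miR-302 clusters, summed to 100584 to 122447 CPM in Dgcr8_KO and Drosha_KO, 6391 to 9046 CPM in Dicer_KO, 60953 to 69093 CPM in Ago12_KO and 126513 to 136664 CPM in WT. The 8 neural and sensory markers summed to 1495 to 3225 CPM in Dgcr8_KO and Drosha_KO, 294 to 486 CPM in Dicer_KO, 1139 to 1207 CPM in Ago12_KO and 3080 to 3270 CPM in WT. Blood markers summed to 4725 to 4780 CPM in Dgcr8_KO, 3498 to 5644 CPM in Drosha_KO, 427 to 597 CPM in Dicer_KO, 8660 to 11290 CPM in Ago12_KO and 1354 to 1765 CPM in WT. Liver, gut and endoderm markers summed to 174 to 405 CPM in Dgcr8_KO and Drosha_KO, 240 to 509 CPM in Dicer_KO, 6816 to 11743 CPM in Ago12_KO and 1557 to 1612 CPM in WT. Fibroblast or feeder markers summed to 1388 to 6773 CPM in the mutants and 2719 to 3650 CPM in WT, and 3 muscle markers stayed at or under 9.79 CPM.

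The cluster took 20.4% and 21.2% of the counts in Dgcr8_KO. It took 31.3% and 25.6% in Drosha_KO, 11.6% and 8.27% in the Dicer_KO libraries, 12.4% and 17.8% in Ago12_KO and 14.8% and 14.1% in WT. Both Microprocessor knockouts stood above WT, Dicer_KO below it, and Ago12_KO overlapped it. An exact two-sided permutation test of 2 against 2 libraries cannot give a p below 0.33, the value for the Dgcr8_KO, Drosha_KO and Dicer_KO shares, so it cannot pass 0.05. With the 8 fragment-like entries out of the totals the Dicer_KO share turned to 27.0% and 21.8%, above 14.9% and 14.1% in WT. Those entries held most of the Dicer_KO counts, so leaving them out raises the share of every other entry there. The turn shows how far the share depends on the totals and is not a test of the cluster. Set against the miR-290 to miR-295 cluster, the leading miRNA cluster of these stem cells, there were 255 to 319 cluster counts per 100 in Dicer_KO, 124 to 149 in Dgcr8_KO and Drosha_KO, 99.3 and 155 in Ago12_KO, and 71.2 to 80.3 in WT. That reference itself summed to 32394 to 36221 CPM in Dicer_KO, 115206 to 124465 CPM in Ago12_KO and 159959 to 163688 CPM in Dgcr8_KO. It summed to 204709 to 210473 CPM in Drosha_KO and 184551 to 198125 CPM in WT. A higher ratio can therefore come from a lower reference and does not by itself show more of the cluster.

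miR-182-5p, the guide strand of the last hairpin, reported to act on FoxO transcription factors, made up 67.7% to 95.8% of the cluster counts in every library. It had 193345 and 201596 CPM in Dgcr8_KO and 299815 and 242545 CPM in Drosha_KO. Dicer_KO had 78258 and 57023 CPM, Ago12_KO 115347 and 169123 CPM, and WT 125617 and 120284 CPM. It was the first entry by count in all 4 Dgcr8_KO and Drosha_KO libraries and in Ago12_KO replicate 2, the second in Ago12_KO replicate 1 and both WT libraries, and the fifth and sixth in Dicer_KO. In the order of mean level, Drosha_KO came before Dgcr8_KO (log2 fold change of Dgcr8_KO over Drosha_KO -0.46, SE 0.23, edgeR adjusted p = 0.226), then Ago12_KO, WT and Dicer_KO. The Drosha_KO and Dgcr8_KO levels did not pass the test against each other, and neither did Ago12_KO against WT.

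miR-183-5p, the guide strand of the first hairpin, did not follow it. It had 8980 and 9536 CPM in Dgcr8_KO and 11187 and 11958 CPM in Drosha_KO. Dicer_KO had 34784 and 23935 CPM, Ago12_KO 6227 and 7554 CPM, and WT 21716 and 19682 CPM. Its mean level was highest in Dicer_KO, where that of miR-182-5p was lowest. In Dgcr8_KO, Drosha_KO and Ago12_KO its mean lay below WT. miR-96-5p, the guide of the middle hairpin and the arm known for hearing loss, was rarer in every library. It had 1036 and 1001 CPM in Dgcr8_KO and 1316 and 819 CPM in Drosha_KO. Dicer_KO had 88.5 and 53.4 CPM (4 and 2 counts), Ago12_KO 469 and 388 CPM, and WT 371 and 357 CPM. Its mean level lay above WT in both Microprocessor knockouts and below WT in Dicer_KO.

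**Figure D2:**
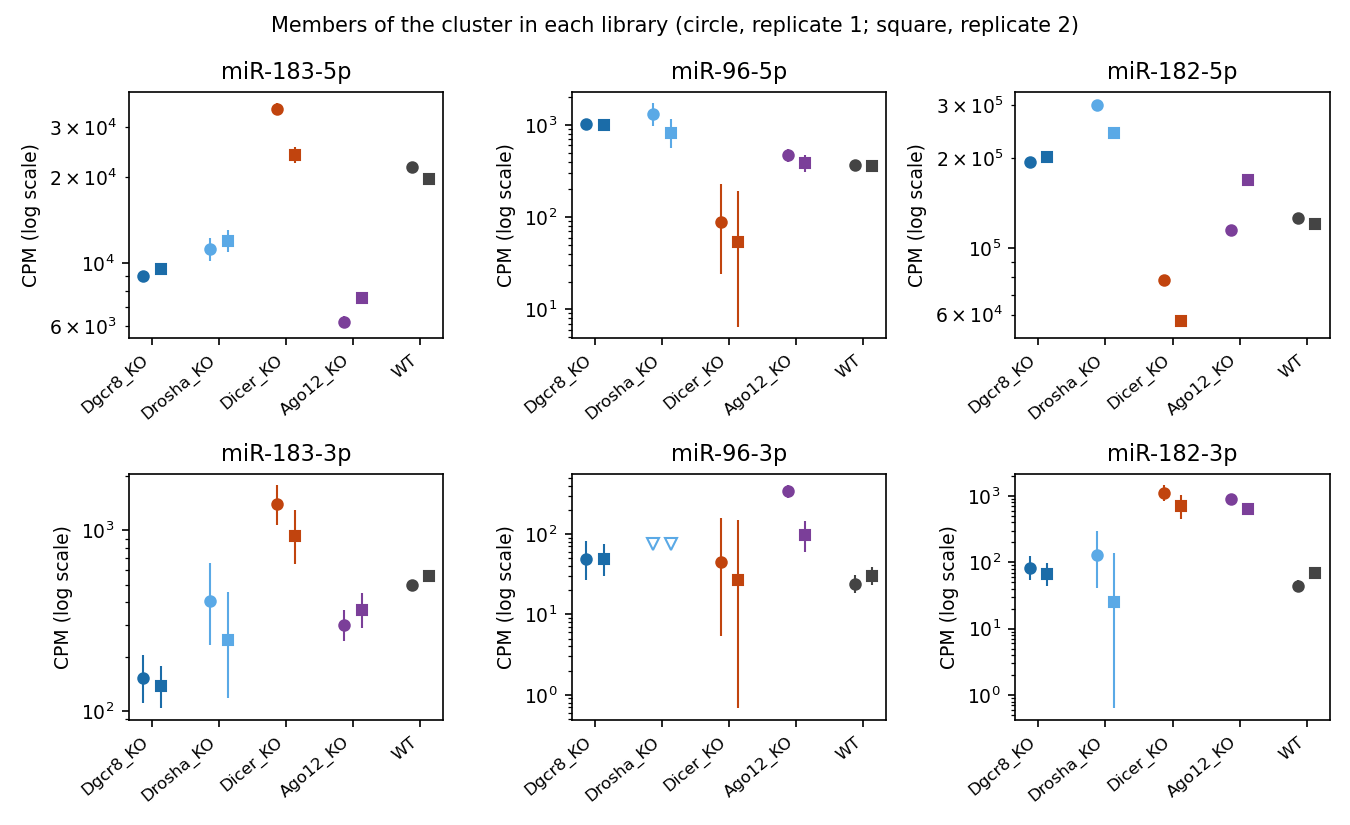
CPM (log scale) of each member in each library, with 5p arms in the upper row, bars for the 95% Clopper-Pearson counting interval, and open triangles at the floor of 3 counts where a library had no count. miR-182-5p runs from 57023 to 299815 CPM and miR-183-5p from 6227 to 34784 CPM, with Dicer_KO lowest in the first and highest in the second.

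The ratio of the guide strands within a library does not depend on how libraries are scaled. Per 100 counts of miR-182-5p there were 4.64 and 4.73 counts of miR-183-5p in Dgcr8_KO and 3.73 and 4.93 in Drosha_KO. Dicer_KO had 44.4 and 42.0, Ago12_KO 5.40 and 4.47, and WT 17.3 and 16.4. The ratio was thus lower than WT in all 6 Dgcr8_KO, Drosha_KO and Ago12_KO libraries and higher in both Dicer_KO libraries. To test it, edgeR's quasi-likelihood test was refitted over 480 entries with the miR-182-5p count as library size, a fit chosen after the values were seen. Relative to miR-182-5p, miR-183-5p changed by a log2 fold change of -1.84 in Dgcr8_KO over WT (SE 0.31, edgeR adjusted p = 0.000398), by -1.96 in Drosha_KO (SE 0.31, edgeR adjusted p = 0.000305), by 1.36 in Dicer_KO (SE 0.31, edgeR adjusted p = 0.00414) and by -1.77 in Ago12_KO (SE 0.31, edgeR adjusted p = 0.000896). In that fit 24.2% of entries were called higher and 47.5% lower in Dgcr8_KO, and 21.2% and 45.2% in Drosha_KO. For Dicer_KO these were 15.8% and 29.4%, and for Ago12_KO 25.6% and 26.7%. These 4 comparisons share the WT libraries. The 4 calls were kept under a replicate block, with only the groups compared in the fit and without each library in turn, with a highest edgeR adjusted p of 0.00963 for Dgcr8_KO, 0.00282 for Drosha_KO, 0.0339 for Dicer_KO and 0.00871 for Ago12_KO.

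Both arms of the miR-183 hairpin are set against the same miR-182-5p counts, so a change in miR-182-5p moves both alike. Part of their likeness is thus built in, and their changes in share of all counts are given further below. Relative to miR-182-5p, miR-183-3p changed by -2.55 in Dgcr8_KO (SE 0.32, edgeR adjusted p = 6.38e-05), -1.85 in Drosha_KO (SE 0.35, edgeR adjusted p = 0.000902) and 1.99 in Dicer_KO (SE 0.32, edgeR adjusted p = 0.000455), in the direction of miR-183-5p. Its log2 fold change in Ago12_KO, -0.86 (SE 0.30, edgeR adjusted p = 0.0351), failed the threshold with a replicate block (0.0625) and without either Dgcr8_KO library (0.0768 without replicate 1 and 0.0764 without replicate 2), either WT library (0.105 and 0.218 likewise) or Ago12_KO replicate 2 (0.115). miR-96-5p was set against miR-182-5p in the same way. Per 100 counts of miR-182-5p there were 0.536 and 0.496 counts of it in Dgcr8_KO and 0.439 and 0.338 in Drosha_KO. Dicer_KO had 0.113 and 0.0936, Ago12_KO 0.407 and 0.229, and WT 0.295 and 0.297. Its log2 fold change relative to miR-182-5p was 0.80 in Dgcr8_KO (SE 0.34, edgeR adjusted p = 0.0507), 0.40 in Drosha_KO (SE 0.35, edgeR adjusted p = 0.3328) and 0.11 in Ago12_KO (SE 0.34, edgeR adjusted p = 0.800), and in Dicer_KO -1.49 (SE 0.53, edgeR adjusted p = 0.0409). The Dicer_KO call rests on 6 counts and was lost without 1 library of Dgcr8_KO, Dicer_KO or WT, at up to 0.182. The Dgcr8_KO value passed when only those groups were fitted (0.00103) or without 1 library of Drosha_KO or Ago12_KO, over a range of 0.00103 to 0.192.

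**Figure D3:**
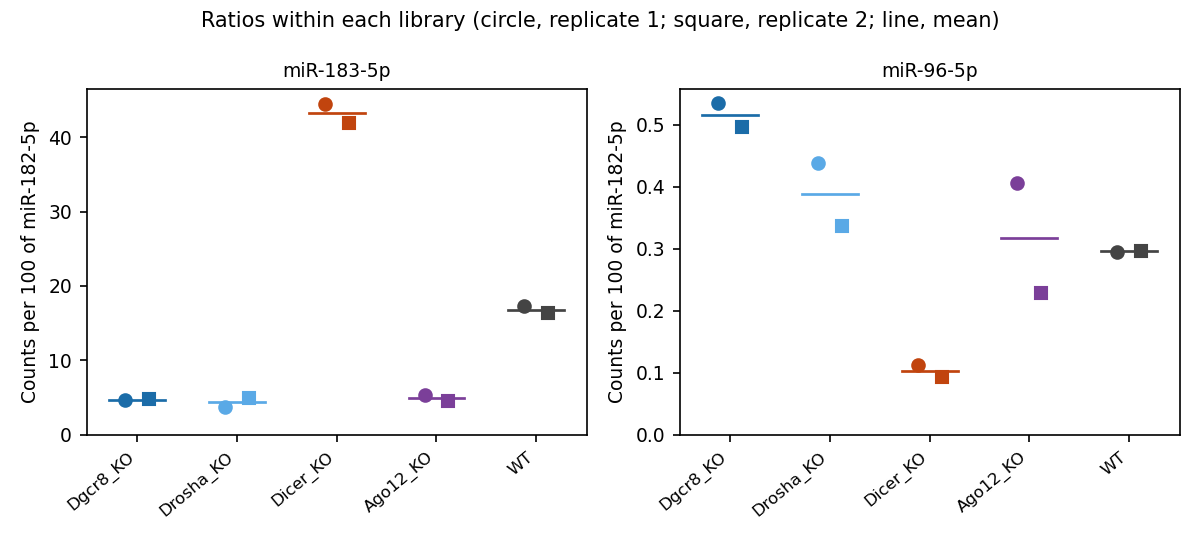
Counts of miR-183-5p (left) and miR-96-5p (right) per 100 counts of miR-182-5p in each library, with a line at the group mean. For miR-183-5p the Dicer_KO libraries are at 44.4 and 42.0, the WT libraries at 17.3 and 16.4 and the other 6 libraries between 3.73 and 5.40.

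Dgcr8_KO was set against WT to see which members changed in share without the Microprocessor cofactor. As shares of all counts, miR-182-5p rose by a log2 fold change of 0.68 (1.61-fold, SE 0.23, edgeR adjusted p = 0.0210) and miR-96-5p by 1.48 (2.80-fold, SE 0.30, edgeR adjusted p = 0.00106). miR-183-5p fell by 1.16 (SE 0.27, edgeR adjusted p = 0.00245) and miR-183-3p fell by 1.87 (SE 0.32, edgeR adjusted p = 0.000364). So 2 of 6 members were called higher and 2 lower, where 32.4% and 41.0% of the 481 entries tested were. miR-182-3p, at 82.9 and 66.1 CPM in Dgcr8_KO and 44.1 and 68.9 CPM in WT, and miR-96-3p, at 48.4 and 48.9 CPM in Dgcr8_KO and 24.2 and 30.4 CPM in WT, were not called. The miR-96-3p value of 0.83 (edgeR adjusted p = 0.211) passed with only those 2 groups fitted (0.0472), and was 0.84 without Ago12_KO replicate 2. With counts left unscaled it turned to -1.76 (edgeR adjusted p = 0.0459). The miR-182-5p call was lost under TMM scaling (edgeR adjusted p = 0.142) and when either Dgcr8_KO library (0.0665 without replicate 1 and 0.0908 without replicate 2) or either WT library (0.0551 and 0.0751 likewise) was left out. Over the alternatives, DESeq2 among them, its adjusted p (edgeR or DESeq2) ran from 3.36e-07 to 0.142. With counts left unscaled miR-182-5p turned to -1.94 and miR-96-5p to -1.14.

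Drosha_KO against WT asks the same of the nuclease. miR-182-5p rose by 1.14 (2.21-fold, SE 0.24, edgeR adjusted p = 0.00156) and miR-96-5p by 1.55 (2.93-fold, SE 0.32, edgeR adjusted p = 0.00157), and miR-183-5p fell by 0.84 (SE 0.27, edgeR adjusted p = 0.0193). That made 2 of 6 members higher and 1 lower, where 26.2% and 31.6% of entries were. miR-183-3p, with 405 and 248 CPM in Drosha_KO and 496 and 560 CPM in WT, did not pass (-0.69, SE 0.37, edgeR adjusted p = 0.125), but was called at -1.32 under TMM (edgeR adjusted p = 0.00484) and with counts left unscaled (-6.43), over a range of 5.04e-07 to 0.527. miR-182-3p had 5 counts and 1 count in Drosha_KO. miR-96-3p had no count in either library, which allows up to 37.6 CPM over the group, above its 27.3 CPM in WT, so no fold is given. The miR-182-5p call was lost under TMM (edgeR adjusted p = 0.0616, range 6.84e-07 to 0.0616) and the miR-183-5p call without WT replicate 1 (0.0911, range 5.79e-07 to 0.0911). With counts left unscaled miR-182-5p turned to -4.62 and miR-96-5p to -4.20.

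Set directly against each other, Dgcr8_KO and Drosha_KO differed in 0 of 6 members by edgeR's quasi-likelihood test, where 5.61% of entries were called higher and 8.32% lower. At an unadjusted p under 0.05, 1 member passed, miR-183-3p, with a log2 fold change of -1.18 (SE 0.40, edgeR adjusted p = 0.0736). DESeq2 with its own size factors called 3 members lower in Dgcr8_KO, and 1 with column totals. For miR-183-5p the difference was -0.32 (SE 0.27, edgeR adjusted p = 0.479) and for miR-96-5p -0.07 (SE 0.32, edgeR adjusted p = 0.961).

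Dicer_KO against WT asks which members change in share without the hairpin cut. Among the members, the largest change was in miR-182-3p, the passenger strand of the last hairpin. It had 1106 and 694 CPM in Dicer_KO and 44.1 and 68.9 CPM in WT, and rose by 4.002 (SE 0.44, edgeR adjusted p = 1.50e-05). miR-183-3p had 1393 and 934 CPM in Dicer_KO and 496 and 560 CPM in WT, and rose by 1.15 (SE 0.32, edgeR adjusted p = 0.00997). miR-96-5p fell by 2.33 (SE 0.48, edgeR adjusted p = 0.00178) and miR-182-5p fell by 0.86 (SE 0.23, edgeR adjusted p = 0.00881). miR-183-5p did not pass (0.50, SE 0.27, edgeR adjusted p = 0.129), nor did miR-96-3p with its 2 counts and 1 count. Thus 2 of 6 members were higher and 2 lower, where 13.3% and 42.6% of entries were, and the median log2 fold change of all entries was -2.78. Without the fragment-like entries in the totals, miR-182-5p turned to 0.43 (edgeR adjusted p = 0.152), miR-183-5p was called at 1.80 (edgeR adjusted p = 0.000169) and the miR-96-5p call was lost (-1.04, edgeR adjusted p = 0.116). In the same totals miR-182-3p was at 5.29 (edgeR adjusted p = 3.68e-06) and miR-183-3p at 2.44 (edgeR adjusted p = 9.69e-05). miR-183-5p also passed without Dicer_KO replicate 2 (0.75, edgeR adjusted p = 0.0433). With DESeq2 size factors in edgeR miR-182-5p likewise turned to 0.52 (edgeR adjusted p = 0.121) and the miR-96-5p call was lost (edgeR adjusted p = 0.188). The miR-182-3p call kept its direction under every alternative run except counts left unscaled, where it turned to -1.64, as miR-183-3p did to -4.52. That of miR-183-3p was lost without Dicer_KO replicate 1 (edgeR adjusted p = 0.119) or either WT library (0.0838 without replicate 1 and 0.0506 without replicate 2), and ran from 4.07e-24 to 0.119 over the alternatives. That of miR-182-5p was lost without Dicer_KO replicate 2 (0.0619), within 2.26e-07 to 0.152.

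Set against the Microprocessor knockouts, Dicer_KO had more of miR-183-5p, by 1.34 over Drosha_KO (SE 0.27, edgeR adjusted p = 0.00212) and by 1.67 over Dgcr8_KO (SE 0.27, edgeR adjusted p = 0.000464). miR-183-3p was higher by 1.84 and 3.02 and miR-182-3p by 3.59 and 3.61 in these comparisons (edgeR adjusted p at most 0.00264). The miR-182-3p value over Drosha_KO rests on 5 counts and 1 count there, and became 5.18 without Drosha_KO replicate 1 and 2.84 without Drosha_KO replicate 2. miR-182-5p was lower, by -2.00 over Drosha_KO (SE 0.24, edgeR adjusted p = 4.82e-05) and by -1.55 over Dgcr8_KO (SE 0.24, edgeR adjusted p = 0.000298), and so was miR-96-5p (-3.88 and -3.81, edgeR adjusted p at most 5.61e-05). In each, 3 members were higher and 2 lower, where 13.5% and 30.4% of entries were over Drosha_KO and 15.8% and 31.2% over Dgcr8_KO. Without the fragment-like entries in the totals the miR-182-5p call over Dgcr8_KO was lost (-0.39, edgeR adjusted p = 0.200), as it was with DESeq2 size factors (-0.13, edgeR adjusted p = 0.701). The other calls stood at 2.55 over Drosha_KO and 2.82 over Dgcr8_KO for miR-183-5p, 3.04 and 4.17 for miR-183-3p, 4.79 and 4.77 for miR-182-3p, -2.68 and -2.66 for miR-96-5p and, over Drosha_KO, -0.80 for miR-182-5p without those entries. With counts left unscaled, miR-183-5p turned to -1.40 and miR-183-3p to -0.029 over Dgcr8_KO.

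Ago12_KO against WT asks which members change in share without the main Argonaute proteins. The guide strands miR-182-5p (0.21, SE 0.23, edgeR adjusted p = 0.457) and miR-96-5p (0.24, SE 0.30, edgeR adjusted p = 0.508) were not called, and miR-183-5p fell by 1.59 (SE 0.27, edgeR adjusted p = 0.000501). Under TMM the values turned to -0.44 for miR-182-5p and -0.41 for miR-96-5p, again not called. The passenger strand miR-182-3p had 907 and 641 CPM in Ago12_KO and 44.1 and 68.9 CPM in WT, a rise of 3.78 (13.7-fold, SE 0.41, edgeR adjusted p = 3.07e-05). miR-96-3p had 341 and 95.9 CPM in Ago12_KO and 24.2 and 30.4 CPM in WT, a rise of 3.03 (8.15-fold, SE 0.53, edgeR adjusted p = 0.000796) that became 1.81 without Ago12_KO replicate 1 and 3.64 without Ago12_KO replicate 2. miR-183-3p, at 301 and 362 CPM in Ago12_KO and 496 and 560 CPM in WT, did not pass (-0.68, SE 0.31, edgeR adjusted p = 0.0814). So 2 of 6 members were higher and 1 lower, where 28.7% and 25.8% of entries were. Beside these values, marker miRNAs of other cell types also changed in Ago12_KO: all 3 tested blood markers were called higher, and of the 3 tested liver, gut and endoderm markers 2 were called higher and 1 lower. Of the 5 tested neural and sensory markers 1 was called higher and 3 lower, and of the 4 fibroblast or feeder markers 1 higher and 1 lower. Blood markers were called in the other mutants too: 2 higher and 1 lower in Dgcr8_KO, 2 higher and 0 lower in Drosha_KO and 0 higher and 2 lower in Dicer_KO. miR-192-5p led the endoderm list, at 6564 and 11451 CPM in Ago12_KO and 1412 and 1338 CPM in WT. miR-194-5p went the other way, at 45.8 and 113 CPM in Ago12_KO and 177 and 195 CPM in WT. The markers miR-122-5p, miR-223-3p, miR-451a and miR-144-3p had no count in Ago12_KO. Their part in the member values was not tested. The miR-183-3p value passed under TMM (edgeR adjusted p = 0.00193), with DESeq2 size factors (0.0219) and in DESeq2, over a range of 2.84e-05 to 0.307, and unscaled counts took the calls of miR-182-3p (0.96, edgeR adjusted p = 0.114) and miR-96-3p (0.28, edgeR adjusted p = 0.714).

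**Figure D4:**
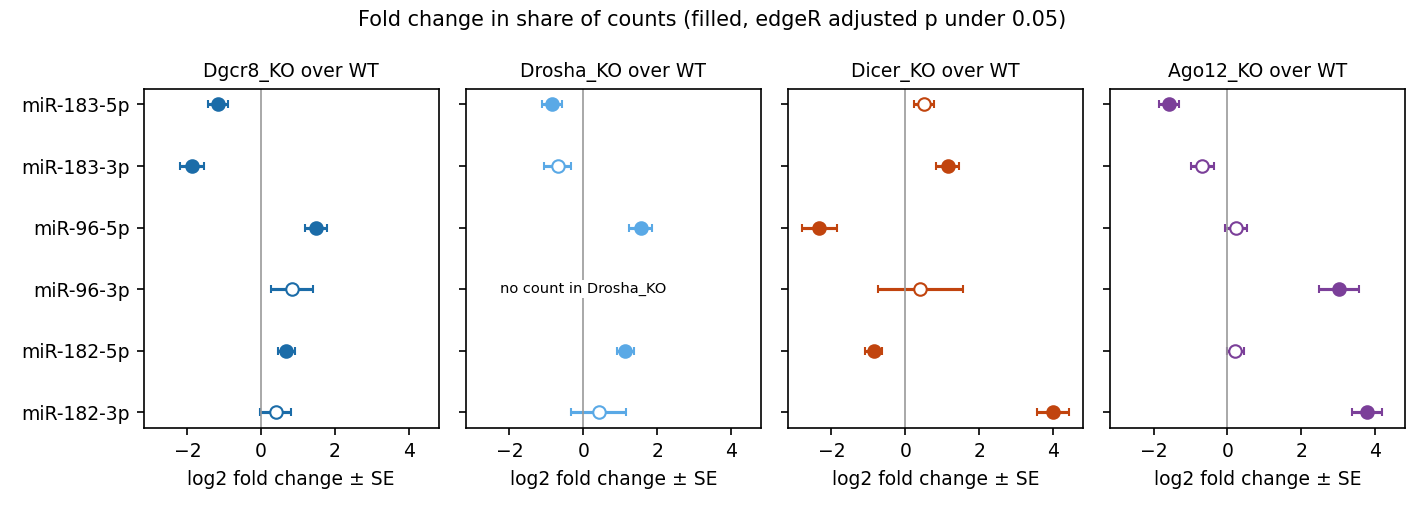
Log2 fold change of each member over WT with its standard error, for the 4 mutants, with filled points where the edgeR adjusted p is under 0.05. miR-182-3p is at 4.002 in Dicer_KO and 3.78 in Ago12_KO, and miR-183-5p is below 0 in Dgcr8_KO, Drosha_KO and Ago12_KO.

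Ago12_KO over Dicer_KO, which sets loss of the holding proteins against loss of the cut, gave 3 members higher and 2 lower, where 38.5% and 8.94% of entries were. miR-183-5p (-2.09, SE 0.28, edgeR adjusted p = 9.05e-05) and miR-183-3p (-1.82, SE 0.33, edgeR adjusted p = 0.00105) were lower in Ago12_KO. miR-96-5p (2.57, SE 0.48, edgeR adjusted p = 0.00131), miR-96-3p (2.62, SE 0.94, edgeR adjusted p = 0.0418) and miR-182-5p (1.07, SE 0.24, edgeR adjusted p = 0.00338) were higher, and all 3 of those calls were lost without the fragment-like entries in the totals, where miR-182-5p turned to -0.19 (edgeR adjusted p = 0.561). With DESeq2 size factors all 3 were lost too, with miR-182-5p at -0.56, and with counts left unscaled miR-183-5p turned to 0.66 and miR-183-3p to 0.94. Without the fragment-like entries miR-183-5p was at -3.36 and miR-183-3p at -3.09. The miR-96-3p call was also lost under TMM (2.26, edgeR adjusted p = 0.0861), and without either Dicer_KO library (0.169 and 0.193), Ago12_KO replicate 1 (0.192) or Dgcr8_KO replicate 2 (0.0503), over a range of 0.000545 to 0.541. miR-182-3p did not pass (-0.22, SE 0.40, edgeR adjusted p = 0.703), but was called at -1.49 without the fragment-like entries (edgeR adjusted p = 0.0151).

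The balance of the 2 arms of a hairpin also does not depend on scaling. The 3p arm held 1.39% and 1.202% of the miR-182 hairpin counts in Dicer_KO (95% Clopper-Pearson intervals 1.04 to 1.83% and 0.787 to 1.76%), 0.781% and 0.377% in Ago12_KO, and 0.0351% and 0.0573% in WT. In Dgcr8_KO it held 0.0429% and 0.0328%, and in Drosha_KO 0.0422% and 0.0102%, both overlapping WT. limma on the log2 ratio of 5p to 3p counts over 84 hairpins gave a difference from WT of -4.88 in Dicer_KO (SE 0.63, limma adjusted p = 0.000515) and -3.60 in Ago12_KO (SE 0.63, limma adjusted p = 0.00292) where 48.8% and 41.7% of hairpins were called in either direction. For Dgcr8_KO the difference was 0.24 (SE 0.63, limma adjusted p = 0.947; 1.19% of hairpins called) and for Drosha_KO 0.76 (SE 0.63, limma adjusted p = 0.448; 13.1% called).

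In Ago12_KO the 3p arm of the miR-96 hairpin held 42.0% and 19.8% of the hairpin counts, against 6.12% and 7.84% in WT (difference of log2 5p over 3p -2.51, SE 0.56, limma adjusted p = 0.00678). This hairpin reached the mean of 20 counts per arm only with the Ago12_KO counts. It thus entered the test through the group where its 3p arm was high. Its Ago12_KO call is therefore a description and adds no support to that of miR-182. That call was lost without WT replicate 1 (limma adjusted p = 0.0597, range 0.00715 to 0.0597 over the libraries left out). In Dicer_KO it was 33.3% in both libraries, from 2 of 6 and 1 of 3 counts, so its call (-2.94, SE 0.56, limma adjusted p = 0.00421) rests on 9 counts in all. In Drosha_KO, with no 3p count, the difference of 2.65 (SE 0.56, limma adjusted p = 0.0172) rests on the pseudocount of 0.5 and was lost with a pseudocount of 2 (0.74, limma adjusted p = 0.244) and without WT replicate 1 (0.0999) or WT replicate 2 (0.148). The miR-183 hairpin passed in none of the 4 mutants: its 3p arm held 1.66% and 1.42% in Dgcr8_KO and 3.49% and 2.03% in Drosha_KO. Dicer_KO had 3.85% and 3.76%, Ago12_KO 4.61% and 4.57%, and WT 2.23% and 2.77%. The Ago12_KO difference of -0.92 (SE 0.42, limma adjusted p = 0.114) passed with a pseudocount of 2 (-0.94, limma adjusted p = 0.0405) and without either Drosha_KO library (0.0408), and the Dicer_KO difference was -0.65 (SE 0.42, limma adjusted p = 0.247).

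**Figure D5:**
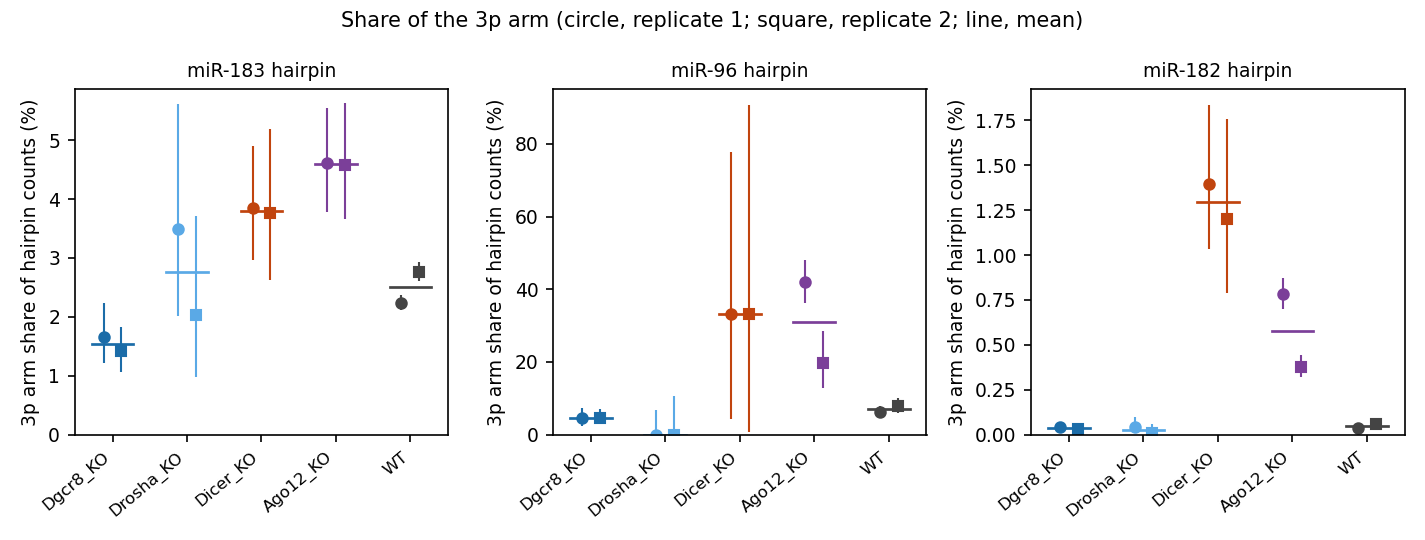
Share of the 3p arm in the counts of each hairpin by library, with 95% Clopper-Pearson intervals and a line at the group mean; the vertical scales differ. For miR-182 the 4 Dicer_KO and Ago12_KO libraries lie at 0.377% to 1.39%, above the 2 WT libraries at 0.0351% and 0.0573%, and for miR-96 the Dicer_KO intervals span most of the axis.

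Other clusters expressed in these cells are given on the same scale of shares, in comparisons that share the WT libraries. Over all 481 entries tested, 32.4% were called higher and 41.0% lower in Dgcr8_KO, and 26.2% and 31.6% in Drosha_KO. For Dicer_KO these were 13.3% and 42.6%, and for Ago12_KO 28.7% and 25.8%. The miR-17-92 cluster, linked to proliferation, had 12 tested arms. In Dgcr8_KO 2 of them were higher and 9 lower (median log2 fold change -3.62, against -0.41 for all entries), and in Drosha_KO 0 were higher and 7 lower (-3.29 against -0.87). Dicer_KO had 1 higher and 8 lower (-3.02 against -2.78), and Ago12_KO 3 higher and 3 lower (-0.10 against -0.02). miR-92a-3p, its most abundant arm in WT, fell by 3.56 in Dgcr8_KO (edgeR adjusted p = 7.17e-07) and fell by 4.63 in Dicer_KO (edgeR adjusted p = 1.19e-07). The miR-290 to miR-295 cluster had 14 tested arms. In Dgcr8_KO 6 were higher and 4 lower (median 0.24, against -0.41 for all entries), and in Drosha_KO 7 higher and 4 lower (0.76 against -0.87). In Dicer_KO 3 were higher and 9 lower (-2.80 against -2.78), and in Ago12_KO 1 was higher and 5 lower (-0.19 against -0.02). miR-295-3p, its most abundant arm in WT, fell by 4.16 in Dicer_KO (edgeR adjusted p = 5.00e-07), while miR-182-5p fell by 0.86. The Dicer_KO values of these other clusters are given only with the fragment-like entries in the totals. Without those entries miR-182-5p turned to 0.43 (edgeR adjusted p = 0.152) and the median of all entries became -1.45.

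Over the 10 libraries, the tested entries whose log2 CPM ran most like that of miR-182-5p were miR-326-3p (Pearson r 0.980), miR-1843a-5p (0.956), let-7g-5p (0.953), miR-3102-3p (0.951) and miR-291a-3p (0.945). These values are descriptive: the libraries fall into 5 groups and differ in depth. miR-326-3p averaged 89.9 CPM in Dgcr8_KO, 138 CPM in Drosha_KO and 28.2 CPM in Ago12_KO, had no count in Dicer_KO, and averaged 17.7 CPM in WT. miR-291a-3p, a guide strand from the cluster miR-290 to miR-295, averaged 9488 CPM in Dgcr8_KO, 25727 CPM in Drosha_KO, 333 CPM in Dicer_KO, 3691 CPM in Ago12_KO and 4425 CPM in WT.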

How the data were processed

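The authors deposited raw read counts per mature miRNA for 10 libraries in 1 table, with no normalization. Per the labels' protocols, 1 ug of Trizol RNA entered each TruSeq library, and the submitters' processing notes name Bowtie and mm10. Which program counted reads, which miRBase release was used and how multiply matching reads were handled is not stated in the sources used. Members were matched by name, and sequences came from RefSeq (GRCm38.p6). Members, lists and tests were chosen with earlier results of these data known. Besides the members and the leading arms of lists, the 5 entries most correlated with miR-182-5p are named.

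All 5 groups were fitted together in edgeR 4.0.16 (quasi-likelihood test, R 4.3.3, 5 residual degrees of freedom), with column totals as library sizes and Benjamini-Hochberg adjustment over the 481 entries that passed filterByExpr (minimum count 10, equal to 38.5 CPM, and minimum total 15). An adjusted p under 0.05 was a call, and the SE is the log2 fold change over the root of F. miR-96-3p passed the filter through Dgcr8_KO and Ago12_KO, not WT. limma 3.58.1 tested log2((5p + 0.5)/(3p + 0.5)) for hairpins averaging 20 or more counts in each arm over the 10 libraries. The miR-96 hairpin met this only with the Ago12_KO counts. Exact permutation used scipy 1.17.1, and DESeq2 1.42.0 was an alternative. Ranges of adjusted p given for fold changes in share of all counts pool edgeR and DESeq2 values, so a low end may come from DESeq2. They also include the run with counts left unscaled, even where its sign turned. The edgeR fit relative to miR-182-5p was added after the data were seen. Intervals and floors reflect counting error alone.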

Additional observations from a re-analysis of the deposited data

How the results depend on the processing

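The values most exposed to processing are those given as shares of all counts, and 2 libraries a group with as few as 37476 counts limit the 3p arms of miR-96 and miR-182. The cause of each change below was not tested. Relative to miR-182-5p, miR-183-5p kept its call and direction in all 4 mutants under each alternative run. The scaling itself moved the median log2 fold change of all entries: in Dicer_KO over WT it was -2.78 with column totals, -3.06 with TMM, -1.67 with DESeq2 size factors, -1.45 without the fragment-like entries and -7.52 with no scaling. The split of all calls in Dicer_KO was 64 higher and 205 lower with column totals, 84 and 106 with DESeq2 size factors, and 91 and 117 without the fragment-like entries. In Ago12_KO it was 138 higher and 124 lower with column totals and 109 and 179 with TMM, at medians of -0.02 and -0.66.

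Under TMM the number of members called was 1 higher in Dgcr8_KO, 1 higher and 2 lower in Drosha_KO and 2 lower in Ago12_KO. The sign turned for miR-182-3p in Drosha_KO (-0.21), for miR-96-5p (-0.41) and miR-182-5p (-0.44) in Ago12_KO, and for miR-96-5p (0.26) and miR-182-3p (0.29) in Dgcr8_KO over Drosha_KO. With DESeq2 size factors in edgeR 0 members were lower in Dicer_KO, 2 lower in Ago12_KO, 1 lower in Dgcr8_KO over Drosha_KO, 1 lower in Dicer_KO over Dgcr8_KO and 0 higher in Ago12_KO over Dicer_KO. DESeq2 itself gave the same counts except 3 lower in Dgcr8_KO over Drosha_KO. Both turned miR-182-5p in Dicer_KO (0.52), in Ago12_KO (-0.042) and in Ago12_KO over Dicer_KO (-0.56), and miR-96-3p in Dicer_KO over Dgcr8_KO (0.98). DESeq2 with column totals called 2 lower in Ago12_KO and 1 lower in Dgcr8_KO over Drosha_KO. Without the fragment-like entries 0 members were lower in Dicer_KO, 1 lower in Dicer_KO over Dgcr8_KO and 0 higher in Ago12_KO over Dicer_KO. The sign turned for miR-182-5p in Dicer_KO (0.43) and in Ago12_KO over Dicer_KO (-0.19), miR-182-3p in Dgcr8_KO over Drosha_KO (0.022) and miR-96-3p in Dicer_KO over Dgcr8_KO (0.73). The difference in cluster share from WT then became 8.40 percentage points in Dgcr8_KO and 9.87 in Dicer_KO. Per 100 miR-290 to miR-295 cluster counts, a reference that itself differed between groups, Dgcr8_KO exceeded WT by 52.8, Drosha_KO by 61.0, Dicer_KO by 212 and Ago12_KO by 51.2. With a pseudocount of 2 the arm balance of miR-96 in Drosha_KO was 0.74 and that of miR-183 in Ago12_KO -0.94.

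With no scaling 0 members were higher and 6 lower in Dgcr8_KO, Drosha_KO and Dicer_KO, 0 higher and 4 lower in Ago12_KO, 6 higher in Dgcr8_KO over Drosha_KO, 0 higher and 4 lower in Dicer_KO over Dgcr8_KO and 0 lower in Ago12_KO over Dicer_KO. In Dgcr8_KO the sign turned for miR-96-5p (-1.14), miR-96-3p (-1.76), miR-182-5p (-1.94) and miR-182-3p (-2.22). In Drosha_KO it turned for miR-96-5p (-4.20), miR-182-5p (-4.62) and miR-182-3p (-5.25), and in Dicer_KO for miR-183-5p (-5.18), miR-183-3p (-4.52), miR-96-3p (-5.16) and miR-182-3p (-1.64). In Ago12_KO it turned for miR-96-5p (-2.63) and miR-182-5p (-2.74). In Dgcr8_KO over Drosha_KO it turned for miR-183-5p (2.81), miR-183-3p (1.93), miR-96-5p (3.06), miR-182-5p (2.68) and miR-182-3p (3.04). In Dicer_KO over Dgcr8_KO it turned for miR-183-5p (-1.40) and miR-183-3p (-0.029), and in Ago12_KO over Dicer_KO for miR-183-5p (0.66), miR-183-3p (0.94) and miR-182-3p (2.61).

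With 1 library left out at a time, the lone library of a group being taken to vary like the others, 1 to 3 members were higher in Dgcr8_KO, 0 to 1 lower in Drosha_KO, 1 to 3 higher and 1 to 2 lower in Dicer_KO and 0 to 1 lower in Dgcr8_KO over Drosha_KO. Log2 fold changes ran from -1.18 to 1.16 for miR-182-3p in Drosha_KO, -0.028 to 0.70 for miR-96-3p in Dicer_KO and -0.092 to 0.46 for miR-182-5p in Ago12_KO. In Dgcr8_KO over Drosha_KO they ran from -0.37 to 0.31 for miR-96-5p and -0.78 to 1.57 for miR-182-3p, and in Ago12_KO over Dicer_KO from -0.51 to 0.16 for miR-182-3p. Relative to miR-182-5p the ranges were -0.61 to 0.10 for miR-182-3p and -0.035 to 0.35 for miR-96-3p in Dgcr8_KO, and -0.37 to 0.46 for miR-96-5p in Ago12_KO. Arm balance ran from -0.12 to 0.59 for miR-182 in Dgcr8_KO. In Drosha_KO it ran from -0.043 to 1.55 for miR-182, -0.55 to 0.23 for miR-183 and 2.33 to 2.98 for miR-96, and in Ago12_KO from -1.08 to -0.76 for miR-183 and -3.27 to -1.74 for miR-96. The cluster share in Ago12_KO minus WT ran from -2.10 to 3.35 percentage points.

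The labels number the libraries 1 and 2 in each group but do not say that a number pairs them, and deviations of same-numbered libraries correlated at -0.06 to 0.14 across entries. With the replicate number as a block, the call of miR-183-3p relative to miR-182-5p in Ago12_KO was lost (-0.87, edgeR adjusted p = 0.0625), and no other call or direction of a member changed.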
